A study of Homo sapiens with 2 samples.

Results

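TNFAIP3, CXCL8 and MCL1 were followed in RNA libraries of the human lung cancer line 95D as a feedback inhibitor, a target and a survival gene tied to NF-kB signalling and cell stress. The members were taken by name, every row called TNFAIP3, CXCL8 or MCL1 that carried a number, which gave 3 of the 9253 names with a value and 5 transcript rows. Both samples were 95D cells labelled wild type that had 24 h in complete medium and then 48 h in medium with dialysed serum, 1 sample without glucose and 1 without glutamine. The series' title and design text describe RNA bound to ALKBH5, the demethylase of m6A in RNA, against total input RNA. The labels of both samples give total RNA with ribosomal RNA depleted and name neither a pull-down nor an input. Binding to ALKBH5 is therefore not analysed here. Each condition has a single library, so differences lack replicates and p-values are not given. The genes were chosen by their deposited values in these same libraries, so what follows describes those values and tests nothing.

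NF-kB is a family of transcription factors held inactive in the cytoplasm by IkB proteins. Receptors for tumour necrosis factor, interleukin-1 and microbial products act through ubiquitin chains and the IKK kinases to release it. TNFAIP3, also called A20, is a ubiquitin-editing enzyme that NF-kB induces and that shuts the pathway off, a negative feedback loop. CXCL8, interleukin-8, is a secreted chemokine that draws neutrophils and is a widely used readout of NF-kB and stress kinase activity in epithelial and lung cancer cells. MCL1 is an anti-apoptotic member of the BCL2 family that holds BAK and BIM at the mitochondrion. Its RNA and protein are short-lived, and amplification of its gene is common in lung cancer. Messages of all 3 are known to turn over quickly.

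In the RefSeq annotation of GRCh38.p14, TNFAIP3 spans chr6:137866349-137883312, CXCL8 chr4:73740569-73743716 and MCL1 chr1:150574558-150579610, and all 3 are protein-coding. The deposited rows carry no coordinates or transcript identifiers, so which exons or introns a row covers is not known here. Their header calls the names those of long non-coding RNA genes, so a value under TNFAIP3, CXCL8 or MCL1 is that of the listed transcripts and may or may not include reads of the coding message. The promoter table held TNFAIP3 and CXCL8. The last 150 bases before the annotated start of each are shown because binding sites for NF-kB in this stretch are the textbook reason for calling both genes targets of the factor. Capitals mark matches to GGAANNNCC on either strand, a short pattern that covers many NF-kB sites and that was chosen after these sequences were read.
TNFAIP3, chr6:137867109-137867258, plus strand, GRCh38.p14: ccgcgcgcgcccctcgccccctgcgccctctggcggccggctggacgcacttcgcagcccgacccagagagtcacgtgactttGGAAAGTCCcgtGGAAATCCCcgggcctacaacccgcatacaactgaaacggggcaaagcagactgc
CXCL8, chr4:73740419-73740568, plus strand, GRCh38.p14: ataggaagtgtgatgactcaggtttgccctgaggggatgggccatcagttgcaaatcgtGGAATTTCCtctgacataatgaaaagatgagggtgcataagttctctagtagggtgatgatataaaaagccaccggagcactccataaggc

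The TNFAIP3 stretch held 2 matches, at 67 to 59 and 55 to 47 bases before the start. Both also matched the longer NF-kB consensus, overlapping the short pattern. The CXCL8 stretch held 1 match to GGAANNNCC, at 91 to 83 bases before the start, which reads as a match on both strands, and none to the longer consensus. CXCL8 also held TGACTCA, the element of the AP-1 factors FOS and JUN, at 137 to 131 bases, and TATAAA at 31 to 26 bases. Over all 35116 promoters in the table, searched on both strands in the 250 bases before the start, GGAANNNCC occurred in 17.1%, the NF-kB consensus in 5.21%, TGACTCA in 4.20% and TATAAA in 10.7%. A match is a description of letters. No measurement of binding is part of these data.

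**Figure D1:**
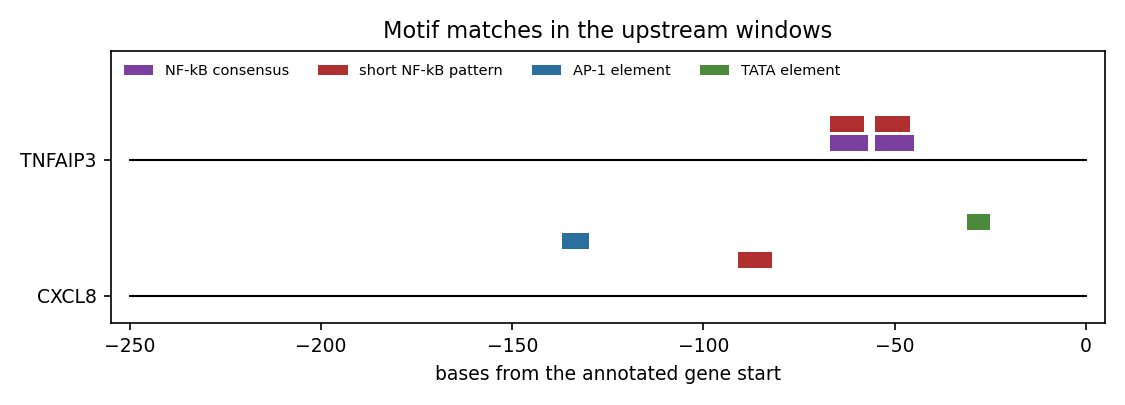
Matches to each motif in the 250 bases before the annotated starts of TNFAIP3 and CXCL8; the horizontal axis is the distance from the start in bases and each bar spans 1 match. The pair of NF-kB matches of TNFAIP3 lies 67 to 46 bases before its start, and CXCL8 shows an AP-1 element, a short NF-kB pattern and a TATA element in that order.

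The libraries differed strongly in the reads behind their listed values before any gene was considered. Only rows with a number enter these totals, so they need not equal sequencing depth. Dividing the deposited values by the equal step between low values gave the whole reads behind them, 42827 for the cells without glucose and 1442572 for those without glutamine. Above 0 without glucose were 4.25% of the names, 393 in all, and 2.54% of the rows. Their values there had quartiles of 55.6 and 142.9 around a median of 102, and 53 names had 10 reads or fewer. The 171 names between those quartiles that were also above 0 without glutamine spanned 0.772 to 3113 there. The common reference genes ACTB and GAPDH were at 0 without glucose, and a 0 there is reported below as listed at 0, with no fold. Among 10 lung epithelial markers 5 had a value. KRT8 and NAPSA stood above 0 in both libraries, while KRT7, KRT18 and KRT19 were above 0 in the glutamine-deprived library alone. EPCAM, CDH1, SFTPB, SFTPC and NKX2-1 had no value here, nor did any of 8 markers of blood, endothelial and fibroblast cells. In bulk RNA, fewer cells with a transcript and less of it per cell cannot be told apart.

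TNFAIP3, the feedback inhibitor, was carried by 2 transcript rows that stood at 743 and 740.4 in the glutamine-deprived library. Without glucose both were listed at 0. The 2 rows sum to 1483, which is 1875 recovered reads (95% Poisson interval 1791 to 1962). That is 0.130% of that library's recovered reads (exact binomial interval 0.124 to 0.136%). All of the signal for this gene thus came from the glutamine-deprived library. On the log2(value + 1) scale the difference was 10.54, a figure set by the pseudocount and not a measured fold. A listed 0 was common even at this number of reads. Of the 43 rows with a read number within 1.3-fold of TNFAIP3 row 1 in the glutamine-deprived library, that row included, 30 were at 0 in the other. Of the 19 names within 1.3-fold of its summed reads, TNFAIP3 included, 11 were.

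The 2 TNFAIP3 rows were almost equal, at 939 and 936 reads, or 50.1% and 49.9% of the gene's reads (47.8 to 52.4% and 47.6 to 52.2%). Their ratio was 1.003. Among the 29 names with exactly 2 rows of at least 100 reads each in the glutamine-deprived library, TNFAIP3 was the 1 whose rows lay within 1% of each other, and the median ratio of larger to smaller row was 1.28. This comparison was chosen after the values were seen. Whether the same reads were counted under both rows was not tested. If they were, the summed value would overstate the gene, and a single row stands at 743 at most.

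CXCL8, the chemokine, had 1 transcript row, at 5.08 without glucose and 40.3 without glutamine. These are 4 reads (95% Poisson interval 1.09 to 10.2) and 51 reads (38.0 to 67.1). Without glutamine CXCL8 had the fewest reads of the members, and its value in the glucose-deprived library lay above those of 8.14% of the names above 0 there. Still, of the 1970 rows within 1.3-fold of its reads without glutamine it was among the 48 above 0 without glucose. As deposited, the glutamine-deprived value was 7.98 times the other (exact conditional interval 2.93 to 30.4, counting error only), or 2.77 on the log2(value + 1) scale. As a share of all recovered reads the order turned, at 0.00934% (0.00254 to 0.0239%) without glucose and 0.00354% (0.00263 to 0.00465%) without glutamine. These intervals overlap. The shares differed 2.64-fold in favour of the glucose-deprived library with an interval of 0.693 to 7.19, so 4 reads could not fix a direction.

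MCL1, the survival gene, had 2 transcript rows. Row 1 was listed at 0 without glucose and stood at 459.6 without glutamine, and row 2 stood at 86.0 and 758. In the glutamine-deprived library row 1 held 581 reads, 37.8% of the gene's reads (exact binomial interval 35.3 to 40.2%), and row 2 held 958, or 62.2%. In the glucose-deprived library all 68 reads (52.8 to 86.2) lay on row 2. The listed reads of MCL1 were therefore split by row differently in the libraries, whatever scale is used. This rests on the listed 0 of row 1, and a change in the transcripts themselves was not tested. Of the 94 rows with a read number within 1.3-fold of row 1 without glutamine, 77 were at 0 without glucose, and of the 42 within that range of row 2, 29 were. Row 2 was among the 13 of those 42 that were above 0.

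Summed over its rows, MCL1 stood at 86.0 without glucose and 1217 without glutamine. That is 14.2-fold as deposited (11.1 to 18.3), or 3.81 on the log2(value + 1) scale. As a share of recovered reads it was 0.159% (0.123 to 0.201%) without glucose and 0.107% (0.101 to 0.112%) without glutamine, 1.49-fold apart in the opposite direction (1.15 to 1.90). XLOC_220679, an unnamed locus that headed both libraries, weighs on that share. With its reads left out of both totals, the MCL1 shares were 1.05-fold apart with an interval of 0.809 to 1.34, which includes no difference. With only the rows above 0 in both libraries counted, which keeps row 2 alone, the ratio was 1.44 in favour of the glucose-deprived library (1.11 to 1.84). The last pair of settings was chosen after the data were seen. MCL1 was thus higher in the glutamine-deprived library on the deposited scale and lower there, or not distinguishable, on the scales set by reads. The deposited values already carry a factor per library, 1.264 per read without glucose and 0.791 without glutamine. How these factors were set is not stated. The totals behind the other scales hold only rows with a number and need not equal sequencing depth. Those scales therefore settle no direction.

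**Figure D2:**
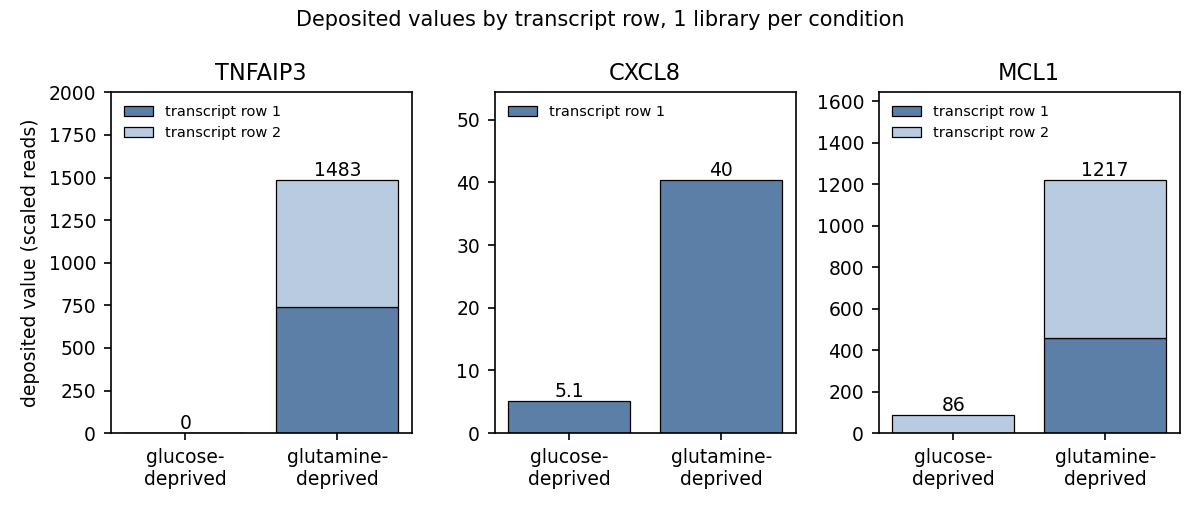
Deposited values (scaled reads, linear axes from 0, a separate axis for each gene) of TNFAIP3, CXCL8 and MCL1 in the glucose-deprived and glutamine-deprived libraries, 1 library per condition, with bars divided by transcript row. TNFAIP3 is at 0 and 1483 with 2 nearly equal rows, CXCL8 at 5.08 and 40.3, and MCL1 at 86.0 and 1217 with row 2 alone in the glucose-deprived library.

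**Figure D3:**
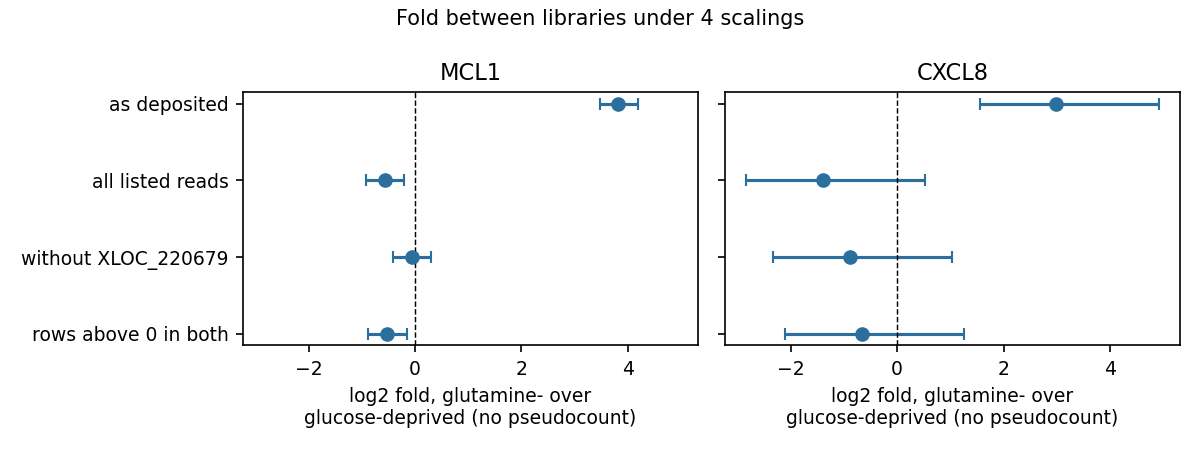
Log2 fold of MCL1 and CXCL8, glutamine-deprived over glucose-deprived, on the deposited scale, per recovered read, per read without XLOC_220679, and per read of rows above 0 in both; bars are exact 95% intervals for counting error and the dashed line marks equality. Both genes lie right of 0 as deposited (MCL1 at 3.82) and left of 0 on the other scales, where all 3 intervals of CXCL8 and 1 of MCL1 cross 0.

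On the deposited scale all 3 members differed by 2-fold or more toward the glutamine-deprived library, as did 97.4% of all names, so this count says nothing particular about them. In the opposite direction 1.42% of names differed so, none of them a member. With each library rescaled to 1000000 the shares of all names were 96.0% and 3.75%; TNFAIP3 was among the former, CXCL8 among the latter and MCL1 in neither. MCL1 and CXCL8 belonged to the 351 names above 0 in both libraries, of which 42.2% were called toward the glutamine-deprived library as deposited. After rescaling, 86.9% of the 351 were called toward the glucose-deprived library. Scaling moves these ratios together, apart from the pseudocount, so ranks are given as well. By ratio of glutamine-deprived to glucose-deprived value, MCL1 ranked 32 from the highest and CXCL8 ranked 54. Their log2 ratios lay 3.20 and 2.16 above the median of the 351 names. The MCL1 ratio sums 2 rows without glutamine but rests on row 2 alone without glucose. By the largest transcript row its log2 ratio was 3.12, against 3.81 by the sum.

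**Figure D4:**
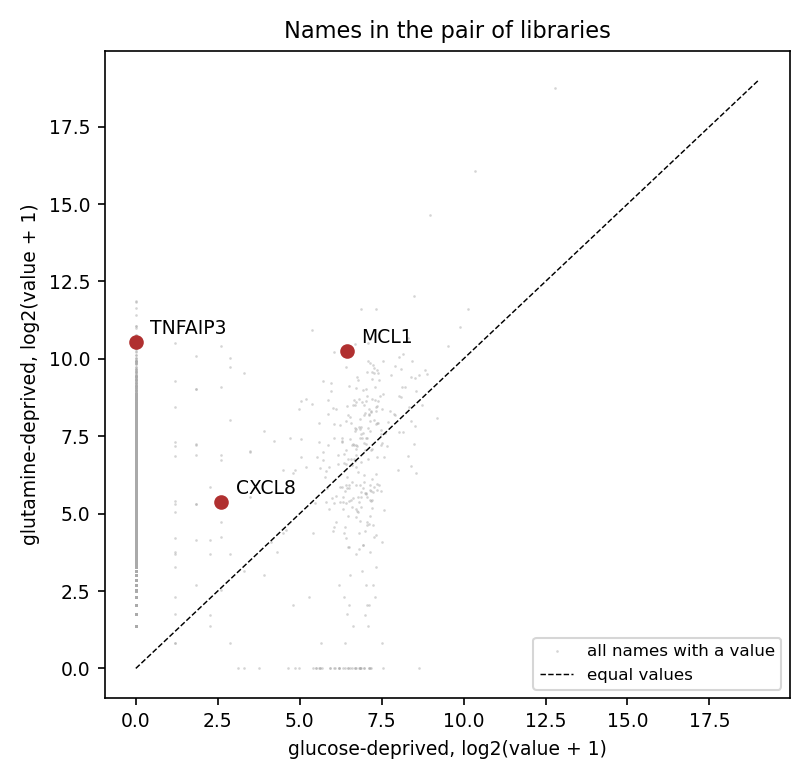
Each of the 9253 names by its log2(value + 1) in the glucose-deprived (horizontal) and glutamine-deprived (vertical) library, with the members in red and equality dashed. TNFAIP3 sits on the column of names listed at 0 without glucose at 10.54, MCL1 in the upper part of the band around 6 to 8, at 6.44 and 10.25, and CXCL8 among the few names of low value in both, at 2.60 and 5.37.

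Ratios between genes within a library are free of the scale. The reads of CXCL8 were 5.56% of those of CXCL8 and MCL1 together in the glucose-deprived library (4 of 72, 1.53 to 13.6%) and 3.21% in the glutamine-deprived library (51 of 1590, 2.40 to 4.20%). These intervals overlap, and no difference in proportion was detectable at these read numbers. TNFAIP3 made up 54.1% of the 3465 reads of all 3 members in the glutamine-deprived library (52.4 to 55.8%) and was listed at 0 beside 72 reads of the others without glucose. TNFAIP3 was thus the member with no reads in the glucose-deprived library. The values are not divided by transcript length, so no order of abundance among the genes is drawn.

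The names nearest to each member in the plane of both log2(value + 1) values were taken by a rule, with only 2 libraries behind each distance. Nearest to TNFAIP3 were SLC9A3-AS1 (distance 0.023), SPG7, a mitochondrial protease subunit (0.099), and FTX, a long non-coding RNA of the X-inactivation centre (0.13). These 3 names were listed at 0 without glucose and stood at 1459, 1385 and 1626 without glutamine. Near MCL1 were ENOSF1 at 84.7 and 1081 (0.17) and SPOCK1, a matrix proteoglycan, at 64.5 and 1181 (0.41). CXCL8 had no close neighbour. TENT2, a poly(A) polymerase, lay at 3.81 and 57.7 (0.61), ORC4, of the replication origin complex, at 5.08 and 25.2 (0.66), and RPL8, a ribosomal protein, at 2.55 and 38.7 (0.78).

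Genes beside the members can share reads with them, and how strand was treated is not stated. WAKMAR2, a long non-coding RNA gene whose RefSeq span overlaps that of TNFAIP3 by 1885 bases, was listed at 0 without glucose and at 16.6 without glutamine, against 1483 for TNFAIP3. The printed TNFAIP3 stretch lies within both spans, because the span of TNFAIP3 includes transcripts with an earlier start. ADAMTSL4-AS1, a long non-coding RNA gene that ends 6 bases from the MCL1 span, stood at 0 and 58.5, against 86.0 and 1217 for MCL1. No other protein-coding or long non-coding RNA gene of RefSeq overlapped CXCL8, and none within 100 kb of it had a value here.

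The surrounding pathway was read from 11 lists of 138 genes, none holding a member, of which 62 had a value. All 62 were above 0 without glutamine and 3 of them without glucose, or 4.84% against 4.25% of all names. As deposited, 59 of the 62 differed 2-fold or more toward the glutamine-deprived library and 0 toward the other. Over all names the shares were 97.4% and 1.42%, so this count is near the background. The median log2(value + 1) difference of the 62 was 5.28 against 4.32 over all names. Most of these ratios rest on a listed 0 and on the pseudocount. The lists give the levels in the glutamine-deprived library and describe no change in the pathway.

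Of the receptors, 7 of 12 had a value and 1 was above 0 without glucose. This was CXCR1, a receptor for CXCL8 known mainly from neutrophils, at 109 and 79.9. TNFRSF10B, a death receptor for TRAIL, stood at 301 without glutamine. TNFRSF1A, the main receptor for tumour necrosis factor, stood at 185 there and LTBR, the lymphotoxin receptor, at 200. All 3 were listed at 0 without glucose. The reads of the ligand CXCL8 were 4.44% of those of CXCL8 and CXCR1 in the glucose-deprived library (1.22 to 11.0%) and 33.6% in the glutamine-deprived library (26.1 to 41.7%). These intervals did not overlap, and the pair was set side by side after its values were seen. Against TENT2, the name nearest to CXCL8, the CXCL8 share was 57.1% (18.4 to 90.1%) without glucose. It was 41.1% (32.4 to 50.3%) without glutamine, and those intervals overlap. By log2(value + 1) difference, 84.6% of the 351 names above 0 in both libraries lay below CXCL8. A difference toward this side is therefore not particular to CXCR1.

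Of the kinases and adaptors between receptor and NF-kB, 11 of 21 had a value, and all 11 were listed at 0 without glucose. IRAK1, the kinase below the interleukin-1 and Toll-like receptors, stood at 765 without glutamine and IKBKB, a catalytic IKK subunit, at 259. RBCK1 and RNF31, of the complex that builds linear ubiquitin chains, stood at 275 and 122. The 5 NF-kB subunits all had a value and all were listed at 0 without glucose. NFKB2, the p100 precursor, stood at 141, RELA, the p65 subunit, at 37.1, NFKB1 at 30.0 and RELB at 23.7 without glutamine.

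Feedback regulators other than TNFAIP3 had a value in 13 of 19 cases, all listed at 0 without glucose. In the glutamine-deprived library they ranged from 3.15 to 210.4. TRAF3, which restrains the non-canonical branch, stood at 210.4, ZC3H12A, an RNase that degrades cytokine messages, at 89.4, NFKBIA, the classic IkB, at 84.5 and NFKBIZ, a nuclear IkB, at 74.3. Of 21 other chemokine and inflammatory genes only 3 had a value, CXCL2, a neutrophil chemokine, at 119, IL6 at 90.2 and IL1B at 15.8. All 3 were listed at 0 without glucose, and CXCL8 at 4 reads was the chemokine seen in both libraries.

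MCL1 was the anti-apoptotic BCL2 family gene with a value. BCL2, BCL2L1, BCL2L2 and BCL2A1 were looked up and had no row under these names. Of 11 pro-apoptotic members 3 had a value, all listed at 0 without glucose. BAX, a pore former of the mitochondrial membrane, stood at 224 and BBC3 and PMAIP1, the PUMA and NOXA proteins that bind MCL1, at 14.2 and 13.4 without glutamine. Of 12 caspases and their regulators 7 had a value. CASP8, the initiator below death receptors, stood at 184 and CFLAR, its inhibitor, at 94.8 without glutamine, and both were listed at 0 without glucose.

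Of 8 genes for enzymes that add ubiquitin to MCL1 or remove it, 4 had a value. USP13, a deubiquitinase, was above 0 in both libraries, at 123 and 63.3, and MCL1 was 41.2% of the reads of the pair without glucose (33.6 to 49.1%) and 95.1% without glutamine (93.9 to 96.1%). No scaling alters this difference, which was looked for after the values were seen. By log2(value + 1) difference, 90.9% of the 351 names above 0 in both libraries lay below MCL1. A difference toward this side is therefore not particular to USP13. HUWE1, a ligase for MCL1, stood at 102, USP9X, a deubiquitinase for it, at 37.9 and FBXW7, a ligase adaptor, at 24.5 without glutamine, each at 0 without glucose. CXCR1 and USP13 were among the list genes seen in both libraries. As deposited they were 1.36-fold (1.01 to 1.83) and 1.94-fold (1.43 to 2.64) higher without glucose, where MCL1 and CXCL8 were higher without glutamine. Per recovered read they were 28.7-fold (21.3 to 38.6) and 40.8-fold (30.1 to 55.6) higher without glucose. MCL1 and CXCL8 lay on that side too, at the 1.49-fold and 2.64-fold given above. After rescaling, 86.9% of the 351 names above 0 in both libraries were called 2-fold or more toward that side. Lying there is therefore not particular to these genes.

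Of 11 genes for proteins that act on short-lived messages with AU-rich elements, 6 had a value and none was above 0 without glucose. CNOT1, the scaffold of the main deadenylase, stood at 163, TIA1, a stress granule protein, at 118, HNRNPD at 71.2 and PARN, a deadenylase, at 21.3. Of 14 immediate early transcription factors 3 had a value, KLF4 at 342, ATF3, a stress-induced factor, at 57.7 and FOSB at 11.1, all listed at 0 without glucose.

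**Figure D5:**
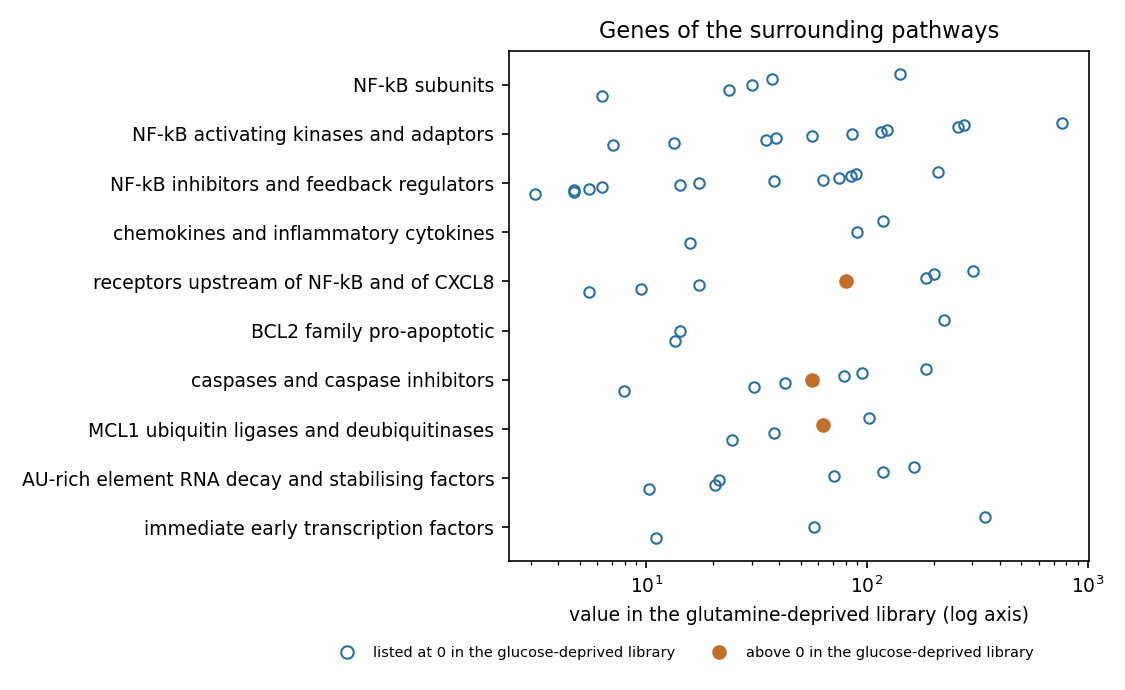
Value in the glutamine-deprived library (log axis) of each of the 62 genes with a value in 10 of the 11 lists, the other list having none; open points are genes at 0 without glucose and filled points are genes above 0 there. Filled points include CXCR1 and USP13, and the highest point is IRAK1 at 765.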

How the data were processed

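Per the labels, total RNA of 95D cells was depleted of ribosomal RNA and sequenced paired-end, 1 library per condition. The submitters' processing notes name HISAT2 2.0.5, StringTie and the build hg38, without roles. Counting, annotation, filters and scaling are not stated in the sources. Per the file headers, rows are names of long non-coding RNA genes, though many are symbols of protein-coding genes, and no unit is stated. The deposited values were read as scaled reads per transcript row, not divided by length. Of 91835 rows, 18663 held a number and the rest a mark, which was left out. Values under 1e-09 were set to 0. Low values climbed in steps of 1.264 and 0.791, and division by the step after removal of an offset (0.022 and -0.018) left 100% of the values worth up to 1000 reads (472 and 18536) within 0.1 of a whole read.

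Rows of a name were summed, and the filter of 1 or more in the higher library passed all 9253 names. Differences are log2(value + 1), glutamine-deprived minus glucose-deprived. Printed intervals of reads, shares and ratios are 95% and cover counting error only. The reads have no molecular identifiers, so copies of 1 molecule may count more than once. These intervals are exact Poisson for reads, exact Clopper-Pearson for shares and exact conditional binomial for ratios. For list medians, the intervals used to judge the processing settings run between values of the listed genes. They do not measure counting error, and genes are not replicates. The members and gene lists were chosen with earlier results of these data known. Named genes are the members, list genes above 0 without glucose, up to 4 list genes highest without glutamine and the 3 nearest symbols of each member; lung markers are given as a check. Some names that this rule takes are not reported here. The calculations used Python 3.11.15 with pandas 2.3.3, numpy 2.4.6 and scipy 1.17.1 and were tested on simulated data. The table of the whole series repeats these values and was left out.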

Additional observations from a re-analysis of the deposited data

How the results depend on the processing

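The log2 ratio of CXCL8, 2.77 as deposited, was -1.38 with each library rescaled to 1000000, -1.55 centred on the median of all names, -0.89 rescaled without XLOC_220679 and -0.67 rescaled over rows above 0 in both. That of MCL1, 3.81, was -0.57, -0.51, -0.066 and -0.53 under the same settings, the last pair of which was added after the data were seen, and 3.12 by the largest transcript row. That of TNFAIP3, 10.54, was 6.22 after centring and stayed positive under every other setting, since it was listed at 0 in the glucose-deprived library. Names 2-fold or more toward the glutamine-deprived library numbered 9008, or 2911 after centring. Those toward the other numbered 131, or 85 at 4-fold, 347 rescaled and 2696 centred. Centring on all names does not set a library scale, because only 4.25% of them were above 0 without glucose. Their median of 4.32 mostly reflects values without glutamine, so the centred figures decide no direction. Against the median of the 351 names above 0 in both, CXCL8 lay 2.16 and MCL1 3.20 higher. With a pseudocount of 0.1 the list medians were 8.23 for NF-kB subunits, 9.74 for kinases and adaptors, 7.45 for feedback regulators, 9.82 for chemokines, 8.74 for caspases, 8.26 for MCL1 ubiquitin enzymes, 8.61 for AU-rich element factors, 9.18 for immediate early factors, 7.16 for pro-apoptotic genes, 7.45 for receptors and 6.58 for lung markers, because most of their genes were listed at 0. The 4.32 over all names belongs to a pseudocount of 1 and is no baseline for these medians. The pro-apoptotic median, 3.93, was 3.75 rescaled. In all, 30 values moved less than their intervals or by less than 1.5 times. They include the pro-apoptotic 7.16 and the receptor 7.45 given above. The interval of the receptor median runs from -0.44 to 8.24 across its genes, so staying within it does not mean a small move. No paired analysis was possible because each condition has 1 library, and no library could be left out. The 42827 recovered reads of the glucose-deprived library limit every ratio, CXCL8 having 4 of them.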
